A study of Homo sapiens with 9 samples.

Results

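PC3 cells, a human prostate cancer line derived from a bone metastasis, were cultured for 48 h either alone (untreated PC3) or below culture inserts that held primary osteoblasts of wild type mice, with 100 ng/ml recombinant human DKK1 in the medium (OB WT + rhDKK1). The comparison rests on 4 of the 9 deposited Affymetrix Human Genome U133 Plus 2.0 arrays, 2 of each group, chosen by their titles alone, and all 54613 probe sets that are not controls entered it. The rhDKK1 arrays differed from each other by over 2-fold on 111 probe sets past the filter on low values, all higher on the first array, and the untreated arrays on 16 higher on the first and 62 higher on the second. The other arrays, 2 of PC3 cells with osteoblasts of Sost knockout mice (OB SostKO) and 3 where the wild type osteoblasts were joined by recombinant human SOST at 100 ng/ml (rhSOST), served to estimate the spread and for the direct comparisons near the end. The osteoblasts came from the calvaria of newborn mice, with a wild type that the study names as C57BL/6N in one place and C57BL/6J in another, and only the PC3 cells were profiled. Replicates are named biological in the titles. Neither wild type osteoblasts without rhDKK1 nor rhDKK1 without osteoblasts has an array here, so the osteoblasts and the added protein cannot be told apart in any value below. The comparison addresses how the transcripts of PC3 cells differ in this co-culture with an added Wnt inhibitor.

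DKK1 is a secreted protein that binds the Wnt co-receptors LRP5 and LRP6 and keeps Wnt ligands from stabilizing beta-catenin, the co-activator of TCF/LEF transcription factors. Osteoblasts need Wnt signaling to form bone, and prostate cancer cells that settle in bone exchange Wnt ligands, inhibitors, growth factors and cytokines with them. NF-kB, a family of transcription factors held in the cytoplasm by inhibitor proteins until a cytokine or stress signal frees them, drives genes such as IL6 and the CXCL chemokines, and PC3 cells are known for expressing many of these without stimulation.

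With OB WT + rhDKK1, PC3 cells had less RNA of inflammatory cytokines, chemokines and immediate early transcription factors than untreated PC3 cells, and more RNA of IGFBP5, the mitochondrial transcript ND6 and the long noncoding RNA LINC00261. The untreated and rhDKK1 arrays also differed in their control RNAs, given below, so RNA preparation and culture condition cannot be told apart. Values are on the log2 scale, where a difference of 1 is 2-fold. Each gene was read by the brightest of its probe sets, which gave 14863 genes. At a Benjamini-Hochberg adjusted p under 0.05 in limma, 372 genes (2.5% of those tested) were higher and 261 (1.76%) were lower. With a fold of at least 2 as well, 22 genes (0.148%) were higher and 19 (0.128%) were lower. The arrays of both groups did not overlap for any of these 41 genes, which their choice by adjusted p and fold makes likely. Of all genes tested, 27% were higher and 28.3% lower on both rhDKK1 arrays than on both untreated arrays. The count of higher genes was 13 without the first rhDKK1 array and 11 without the second, and the count of lower genes was 18 and 17.

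**Figure D1:**
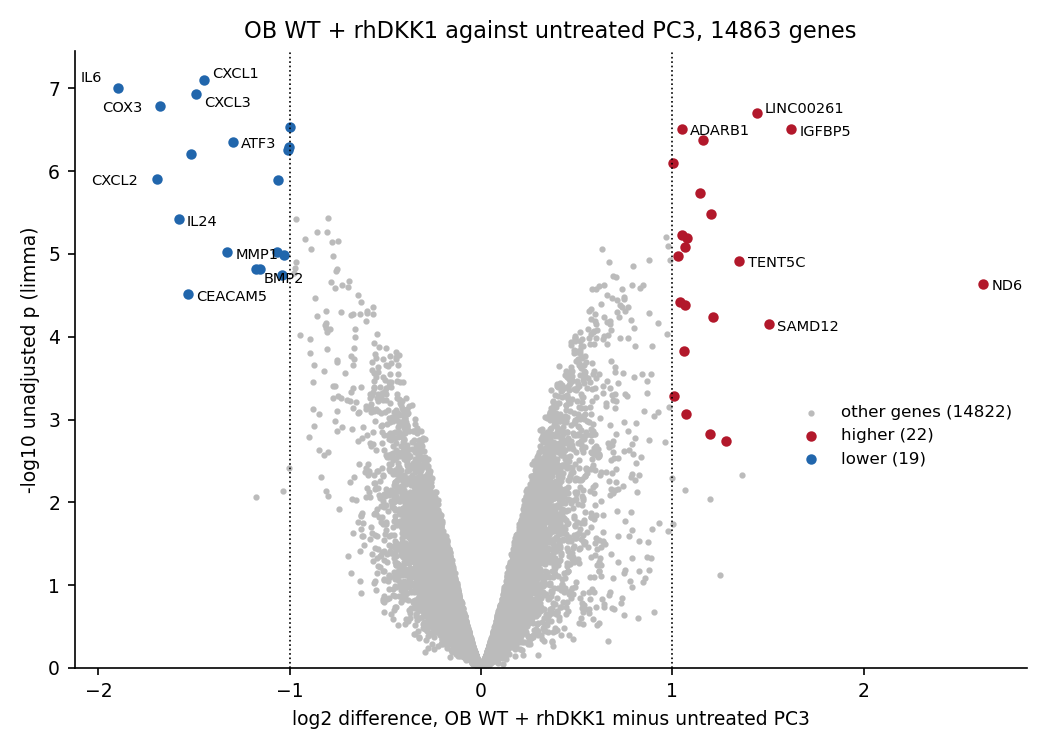
Log2 difference of OB WT + rhDKK1 against untreated PC3 (2 arrays each, x axis) and the unadjusted limma p on a negative log10 scale (y axis) for 14863 genes; dotted lines mark 2-fold. The 22 genes called higher are red and the 19 called lower are blue, with ND6 at 2.63 farthest to the right and IL6 at -1.90 farthest to the left.

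The upstream sequences of 6 genes that fell are shown because all hold the same NF-kB type motif, GGGANTTTC, searched on both strands of the promoters (250 bases before to 50 after the transcription start) that RefSeq gives on GRCh38.p14. Each stretch below has 120 bases read 5′ to 3′ on the gene's own strand, with the motif in capitals. The first 5 end at the base before the start, and that of NFKBIZ runs from base -250 to base -131. IL6 lies at chr7:22727080-22727199 (+), CXCL1 at chr4:73869273-73869392 (+), CXCL2 at chr4:74099196-74099315 (-), CXCL3 at chr4:74038690-74038809 (-), TNFAIP3 at chr6:137867139-137867258 (+) and NFKBIZ at chr3:101827740-101827859 (+).
IL6: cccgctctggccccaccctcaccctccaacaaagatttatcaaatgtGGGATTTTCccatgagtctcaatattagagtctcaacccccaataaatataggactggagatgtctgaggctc
CXCL1: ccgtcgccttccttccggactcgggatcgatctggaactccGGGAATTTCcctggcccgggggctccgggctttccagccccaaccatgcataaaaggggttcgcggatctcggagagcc
CXCL2: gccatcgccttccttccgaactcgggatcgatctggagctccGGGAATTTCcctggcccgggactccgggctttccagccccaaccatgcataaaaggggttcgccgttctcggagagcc
CXCL3: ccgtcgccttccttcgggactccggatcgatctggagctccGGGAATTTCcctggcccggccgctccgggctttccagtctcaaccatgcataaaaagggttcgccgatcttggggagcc
TNFAIP3: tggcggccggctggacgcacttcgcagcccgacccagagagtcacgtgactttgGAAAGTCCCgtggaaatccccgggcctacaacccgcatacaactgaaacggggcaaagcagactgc
NFKBIZ: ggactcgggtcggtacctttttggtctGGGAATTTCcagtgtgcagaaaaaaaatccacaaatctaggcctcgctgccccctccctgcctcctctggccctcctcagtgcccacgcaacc
Counted from the start, the motif's first base was -73 in IL6, -79 in CXCL1, -78 in CXCL2, -79 in CXCL3, -66 in TNFAIP3, where it is on the opposite strand, and -223 in NFKBIZ.
Without gaps, the stretches of CXCL1 and CXCL3 had the same base at 109 of 120 positions. That of CXCL2, where the motif is offset, had 81 in common with CXCL1 and 74 with CXCL3. These 3 promoters are alike, so the 6 are not independent cases of the motif. Of the 14 genes called lower with a promoter in the table, these 6 held the motif, and of the 18 genes called higher 0 did. It was in 1.63% of the promoters of 11848 genes tested and in 1.56% of all 27305 genes with a promoter given. Among all genes that passed the adjusted p, 10 of 189 lower genes held it, adding IL32, PANX1, TAP1 and TNIP1 to the 6, against 3 of 305 higher genes, ASB1, ZNF136 and ZNF41. The AP-1 type motif TGANTCA was in AMIGO2 and IL23A among the 14 genes called lower, in 27 of the 189 lower genes that passed (14.3%), in 22 of the 305 higher ones (7.21%) and in 7.51% of the genes tested. The TCF/LEF type motif ATCAAAG was in none of the called genes, in 8 of the 189 (4.23%), in 8 of the 305 (2.62%) and in 2.18% of the genes tested. The cyclic AMP response type TGACGTCA was in none of the called genes, in 10 of the 189 (5.29%), in 12 of the 305 (3.93%) and in 3.53% of the genes tested. These are matches of letters in a short window and no measure of binding, and no match of one motif overlapped a match of another in the genes called lower.

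Cytokines and chemokines were among the largest falls. Of the genes called lower, IL6 and CXCL2 fell most, followed by COX3 (-1.68), while CEACAM5 (-1.53) and ANXA10 (-1.52) fell more than CXCL1 and CXCL3. IL6, an inflammatory cytokine that also promotes bone resorption, read 9.90 and 10.12 on the untreated arrays and 7.99 and 8.24 with rhDKK1. The untreated arrays lay above both rhDKK1 arrays by far more than the gap within either group (log2 difference -1.90, standard error 0.12, 95% interval -2.17 to -1.63, 3.73-fold lower, limma adjusted p = 0.000582). CXCL1, a neutrophil chemokine, read 12.82 and 12.97 untreated and 11.41 and 11.49 with rhDKK1 (difference -1.45 ± 0.09 SE, limma adjusted p = 0.000582). Its close relative CXCL3 read 9.39 and 9.36 against 7.83 and 7.95 (-1.49 ± 0.10 SE, limma adjusted p = 0.000582). CXCL2 read 9.88 and 10.16 against 8.31 and 8.35 (-1.69 ± 0.14 SE, limma adjusted p = 0.00119). The mRNAs of CXCL1, CXCL2 and CXCL3 are near-identical in parts, and the CXCL2 probe set is of the kind that can match related transcripts, so the 3 values are not independent readings. CXCL8, another neutrophil chemokine, was read by 2 probe sets that differ in size: the brighter one fell by 0.56 and the other by 1.21.

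Other secreted factors of this group fell as well. IL24, a cytokine of the IL10 family, read 8.77 and 8.99 untreated and 7.33 and 7.27 with rhDKK1 (-1.58 ± 0.15 SE, limma adjusted p = 0.0027). IL23A, a subunit of interleukin 23, read 8.66 on both untreated arrays and 7.53 and 7.65 with rhDKK1, a difference of -1.07. IL1B, which activates NF-kB through the interleukin 1 receptor, read 11.75 and 11.35 against 10.70 and 10.79 and fell by 0.80. In each of these genes the 2 rhDKK1 arrays were the lower pair.

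The same held for proteins that relay or limit NF-kB signals. TNFAIP3 (A20), a ubiquitin-editing enzyme that shuts the pathway off, read 10.97 and 10.90 untreated and 9.76 and 9.79 with rhDKK1. Both of its probe sets fell, by 1.15 and 0.996. NFKBIZ, a nuclear member of the inhibitor family, fell by 1.03 at its brightest probe set and differed by -0.05 at the other. IRAK2, a kinase of interleukin 1 and Toll-like receptor signaling, read 9.43 and 9.26 against 8.24 and 8.34 (-1.06 ± 0.09 SE, limma adjusted p = 0.00119). RELB, an NF-kB subunit, fell by 0.97, the transcription factor IRF1 by 0.67 and the adhesion molecule ICAM1 by 0.67. NFKBIA, the main cytoplasmic inhibitor, had -0.80 with a limma adjusted p of 0.0526.

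Of 25 measured genes in a list of 30 NF-kB target genes and cytokines, 12 fell, 0 rose and 13 did not pass, against the 1.76% of all genes that were lower. On 21 of the 25 both rhDKK1 arrays lay below both untreated arrays, which held for 28.3% of all genes, and on 1 both lay above, against 27% of all genes. The median log2 difference of the list was -0.56, beside -0.01 over all genes. This list and those below were chosen with earlier results of these data known, so the shares describe their members and are no test. The count that fell was 8 without either rhDKK1 array, 13 without the third rhSOST array and 7 with only the 4 arrays compared in the fit. Receptors and adaptors of the interleukins did not move as a group: of 19 measured, IRAK2 was the only one that passed, and the list's median was -0.01. Of 26 measured interferon-stimulated genes, OASL (-0.71) and GBP1 (-0.90) fell and 24 did not pass.

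**Figure D2:**
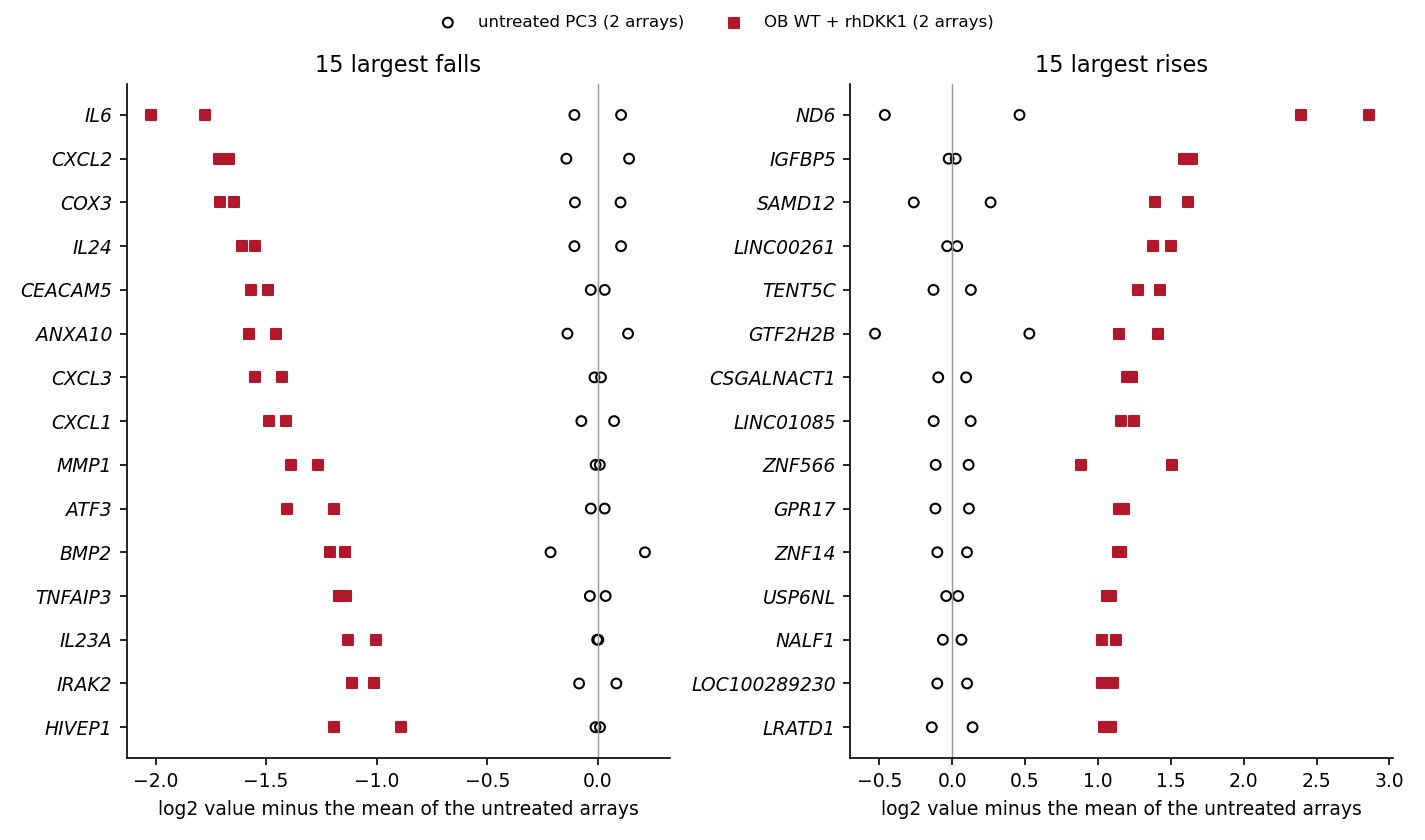
Log2 value of each array minus the mean of the 2 untreated arrays for the 15 largest falls (left) and the 15 largest rises (right); open circles are untreated PC3 and filled squares are OB WT + rhDKK1, 2 arrays each. No square overlaps the circles of its gene, and the widest gaps between arrays of a group are those of GTF2H2B and ND6 among untreated arrays and of ZNF566 among rhDKK1 arrays.

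Immediate early genes, transcribed within minutes of a growth factor or stress signal, also had lower values. ATF3, a stress-induced transcription factor, read 9.19 and 9.25 untreated and 7.82 and 8.03 with rhDKK1 (-1.30 ± 0.10 SE, limma adjusted p = 0.00066). Its 2 dimmer probe sets had -0.57 and -0.08. KLF6, a zinc finger factor, fell by 0.86, the phosphatase DUSP1 by 0.80, KLF4 by 0.68, the matricellular protein CCN2 by 0.63, FOS by 0.56, KLF10 by 0.44, MYC by 0.42 and ZFP36, which degrades cytokine mRNAs, by 0.42. Of 28 measured members, 9 fell, 0 rose and 19 did not pass, beside 1.76% of all genes that were lower, and the median was -0.25. This count is less firm than that of the NF-kB list: it was 3, 4, 3 and 3 without the first or second untreated array or the first or second rhDKK1 array, and 2 with only the 4 arrays compared. Of 17 genes of ERK feedback, the inhibitor SPRY2 fell by 0.50 and 16 did not pass.

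Growth factors fell among the EGF and BMP families. HBEGF, a ligand of the EGF receptor, read 10.30 and 10.31 untreated and 9.33 and 9.26 with rhDKK1 (-1.01 ± 0.08 SE, limma adjusted p = 0.000689). A second probe set for it had -0.89, and 2 dim ones had -0.14 and -0.07. BMP2, a bone morphogenetic protein, read 5.86 and 5.43 against 4.43 and 4.50 (-1.18 ± 0.14 SE, limma adjusted p = 0.0047). It met the filter on low values through the untreated arrays alone. ID3, a transcriptional target of BMPs, fell by 0.86, the BMP antagonist NOG by 0.89 and the inhibitory SMAD7 by 0.76. Of 23 measured genes of the BMP list these 4 fell, beside 1.76% of all genes, 0 rose and 19 did not pass. Of the 23, 9 were lower and 8 higher on both rhDKK1 arrays than on both untreated arrays, where 28.3% and 27% of all genes were. Of 12 measured genes of the EGF list HBEGF and the receptor inhibitor ERRFI1 (-0.44) fell.

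Other falls were in surface, calcium-binding and matrix genes. CEACAM5, a cell adhesion molecule, read 8.60 and 8.54 untreated and 7.077 and 6.999 with rhDKK1 (-1.53 ± 0.19 SE, limma adjusted p = 0.00667). Its second probe set had -0.14, and the call did not pass without the first untreated array or without either rhDKK1 array. ANXA10, an annexin, read 8.96 and 8.69 against 7.25 and 7.37 (-1.52 ± 0.12 SE, limma adjusted p = 0.000708). With ANXA10, S100A2 (-0.87), S100A4 (-0.81) and S100P (-0.50) fell among 22 measured S100 proteins and annexins, 0 rose, and on 17 of the 22 both rhDKK1 arrays were below both untreated arrays, where 28.3% of all genes were. MMP1, an interstitial collagenase, read 7.30 and 7.28 against 5.90 and 6.02 (-1.33 ± 0.14 SE, limma adjusted p = 0.00406). It was 1 of 3 proteases that fell among 29 measured genes of invasion, with ST14 (-0.40) and ADAMTS1 (-0.40). MGP, an inhibitor of calcification, read 5.04 and 5.01 against 3.99 and 4.06 and was just over 2-fold lower, as was the adhesion protein AMIGO2. MGP met the filter on low values through the untreated arrays alone.

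Genes of stress and of drug metabolism fell in small numbers. The cell cycle inhibitor CDKN1A, which read 9.12 and 9.23 untreated and 8.23 and 8.35 with rhDKK1, fell by 0.89 and GADD45A, a growth arrest gene, by 0.78. These were 2 of 16 measured p53 target genes, and PC3 cells are known to lack functional p53. PPP1R15A, which reverses the stress-induced block of translation, fell by 0.87 as the only 1 of 28 genes of the unfolded protein and ATF4 list. The autophagy receptor SQSTM1 fell by 0.81 and the heme oxygenase HMOX1 by 0.44, while the metallothionein MT1M rose by 0.45. CYP1B1, a cytochrome induced by the aryl hydrocarbon receptor, fell by 0.96 at its brightest probe set, with -1.97 and -0.91 at the other 2. TIPARP, another target of that receptor, fell by 0.43, and the other 7 of 9 measured genes of the list did not pass.

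Among the genes that rose, IGFBP5 was the most evenly supported. It encodes a secreted protein that binds insulin-like growth factors and is abundant in bone. The brightest probe set read 8.16 and 8.21 untreated and 9.83 and 9.78 with rhDKK1 (1.62 ± 0.12 SE, 95% interval 1.36 to 1.89, 3.07-fold higher, limma adjusted p = 0.000582). All 6 of its probe sets were higher on both rhDKK1 arrays than on both untreated arrays, with differences from 0.76 to 1.75. Read by the probe set with the largest spread over the 9 arrays, where the untreated arrays were 6.14 and 7.37, the difference was 1.70 and the adjusted p did not pass. No other of the 12 measured genes of the IGF axis passed, among them IGF1R (0.06), IGFBP3 (-0.29) and IRS1 (0.23).

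A few members of the lists of the prostate lineage and of RNA processing were also among the genes that rose. LINC00261, a long noncoding RNA that lies beside FOXA2, read 6.93 and 6.86 untreated and 8.27 and 8.40 with rhDKK1 (1.44 ± 0.10 SE, limma adjusted p = 0.000582). FOXA2, a forkhead factor of endoderm, read 8.07 and 8.19 against 9.04 and 9.01 and rose by 0.89, and HOXB13, a homeobox factor of prostate, rose by 0.43. These were 3 of 10 measured genes of the prostate lineage list, beside 2.5% of all genes that were higher, and LINC00261 and FOXA2 are neighbors. In the list 0 fell and 7 did not pass, the secreted protease KLK3 (-0.26) among them, and the median was 0.04. TENT5C, a cytoplasmic poly(A) polymerase, read 6.53 and 6.79 against 7.93 and 8.09 (1.35 ± 0.15 SE, limma adjusted p = 0.00438). ADARB1, an adenosine deaminase that edits RNA, read 7.13 and 7.10 against 8.19 and 8.15 (1.05 ± 0.08 SE, limma adjusted p = 0.000582), while its other 3 probe sets had 0.60, 0.20 and -0.14. With TENT5A (0.44) and DROSHA (0.40), which starts microRNA processing, these made 4 rises in 17 measured genes of RNA editing, tailing and microRNA processing, beside the 2.5% of all genes that were higher. The microRNA-processing enzyme DICER1 fell by 0.55 at its brightest probe set and had 0.88 and 1.17 at 2 dimmer ones, so its direction depends on the probe set.

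ND6 had the largest rise and is the least tightly measured of the leading genes. It is a subunit of respiratory complex I and the protein-coding gene of the mitochondrial genome that lies on the strand opposite to the others. Its probe set read 7.57 and 6.64 untreated and 9.499 and 9.962 with rhDKK1 (2.63 ± 0.32 SE, 95% interval 1.90 to 3.36, limma adjusted p = 0.0059). The untreated arrays differed from each other by more than most genes did, and the adjusted p did not pass without the second rhDKK1 array or with only the 4 arrays compared. COX3, a cytochrome oxidase subunit of the other strand, read 9.34 and 9.14 against 7.59 and 7.53 (-1.68 ± 0.11 SE, limma adjusted p = 0.000582), by a probe set of the kind that can match related sequences. COX1 fell by 0.66. ATP6 (-0.81), ND2 (-0.67), ND4 (-0.40) and COX2 (-0.19) did not pass. On all 4 the rhDKK1 arrays were the lower pair, as on 28.3% of all genes. The median of the 7 measured mitochondrial genes was -0.66. Of 31 nuclear-encoded genes of the respiratory chain 0 passed, and their differences ran from -0.21 to 0.17.

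The other leading rises were in genes of varied roles and mostly of low values. SAMD12 read 4.70 and 5.23 untreated and 6.58 and 6.35 with rhDKK1 (1.51 ± 0.21 SE, limma adjusted p = 0.00943). GTF2H2B, a copy of a TFIIH subunit gene that shares sequence with its paralogs, read 3.85 and 4.91 against 5.79 and 5.52 (1.28 ± 0.29 SE, limma adjusted p = 0.0459), and its call was lost when any of the 9 arrays but the second untreated one was left out. ZNF566 read 5.03 and 5.25 against 6.65 and 6.02 (1.20 ± 0.26 SE, limma adjusted p = 0.042). CSGALNACT1, an enzyme of chondroitin sulfate synthesis, rose by 1.22, the noncoding RNA LINC01085 by 1.20, the receptor GPR17 by 1.16, the zinc finger gene ZNF14 by 1.15, USP6NL, a regulator of Rab5, by 1.08, NALF1 by 1.07, LOC100289230 by 1.07 and LRATD1 by 1.06. On the untreated arrays LINC01085 read 4.35 and 4.60 and LOC100289230 read 4.19 and 4.39. Both genes met the filter on low values through co-culture arrays alone. Both probe sets of NALF1 rose over 2-fold, by 1.07 and 1.32. Of the 6 probe sets of LRATD1, 5 were higher on both rhDKK1 arrays and the other had -0.22.

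Few adhesion and cytoskeleton genes passed the test, in both directions. The protocadherin PCDH18 read 6.22 and 6.07 untreated and 7.21 and 7.16 with rhDKK1 and rose by 1.04, and CDH11, a cadherin of osteoblasts, rose by 0.39. With CEACAM5 these were the only genes that passed among 30 measured junction genes. Of 45 measured actin, myosin and filopodia genes, the myosin MYH10 (0.47) and PALMD (0.55) rose, RHOF (-0.73), a small GTPase of filopodia, and LIMA1 (-0.50) fell, and 41 did not pass. On 23 of the 45 both rhDKK1 arrays were below both untreated arrays and on 6 above, where 28.3% and 27% of all genes were, and the median was -0.13. Of 29 integrin and focal adhesion genes LPXN (-0.51) fell, with 13 lower and 5 higher on both rhDKK1 arrays. Of 16 genes of epithelial-mesenchymal transition the repressor ZEB1 rose by 0.60 and S100A4 fell. COL8A1, a short-chain collagen, rose by 0.87, TGFBR3, a TGF-beta co-receptor, by 0.74 and keratin KRT15 by 0.48, while KRT7 fell by 0.68. The p-values measure only the spread within the 4 groups of the 9 arrays in the fit. For a bulk profile, fewer cells of a kind and less RNA per cell cannot be told apart.

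**Figure D3:**
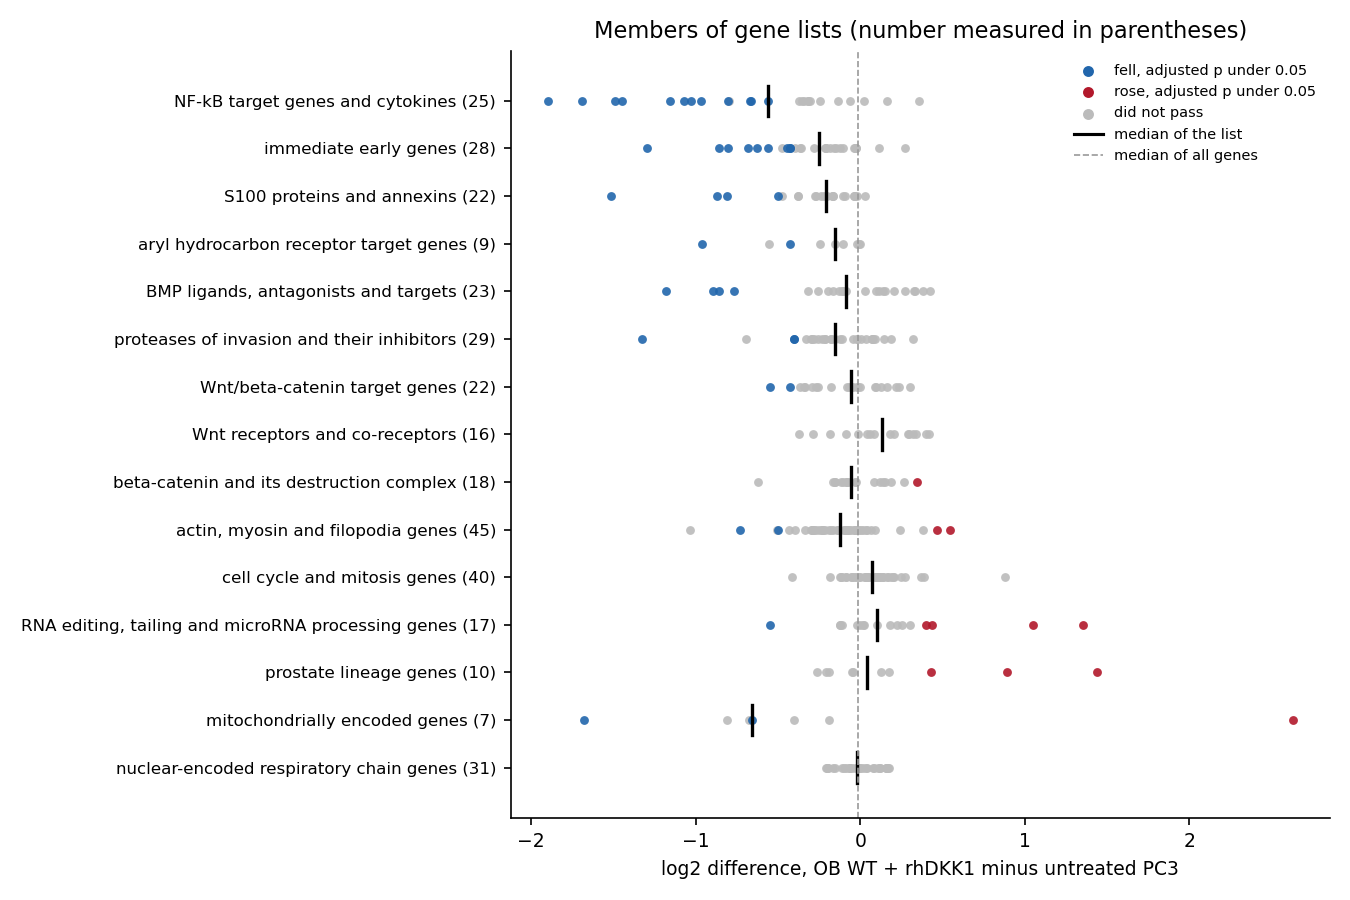
Log2 difference of OB WT + rhDKK1 against untreated PC3 (x axis) for each measured member of 15 gene lists (rows), blue where it fell and red where it rose at an adjusted p under 0.05. Black bars are list medians and the dashed line is the median of all genes; the NF-kB list at -0.56 and the mitochondrial genes at -0.66 lie farthest to the left.

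Few members of the Wnt pathway itself, the target of the added protein, passed the test. DKK1, which PC3 cells make themselves, read 14.01 and 13.99 untreated and 13.90 and 13.93 with rhDKK1 (-0.08 ± 0.07 SE, 95% interval -0.24 to 0.08). Its probe set lay at the 99.8th percentile of each array, where a rise has little room to show, and the array says nothing of the recombinant protein. SOST was below the filter on low values. CTNNB1, which encodes beta-catenin, had 0.26 (95% interval -0.08 to 0.61) and AXIN2, a feedback target of the pathway, 0.16 (95% interval -0.06 to 0.38), and neither passed. A dimmer probe set of CTNNB1 read 7.36 and 6.82 untreated and 8.14 and 8.21 with rhDKK1, a difference of 1.09 without overlap that did not pass either (limma adjusted p = 0.299), and a further one had 0.17. Of 22 measured Wnt/beta-catenin target genes the nuclear receptor PPARD fell by 0.55 and MYC by 0.42, 0 rose and 20 did not pass, with a median of -0.06. LEF1 had -0.30 and NKD1 -0.34. WNT10B fell by 0.36 as 1 of 13 measured ligands. CTNNBIP1, which keeps beta-catenin from TCF factors, rose by 0.35 as 1 of 18 genes of beta-catenin and its destruction complex. Of 16 measured receptors and co-receptors 0 passed. Both rhDKK1 arrays were higher on 8 of them, FZD5 (0.42), FZD4 (0.40) and LRP6 (0.30) included, where 27% of all genes were, and lower on 2, ROR1 (-0.37) and FZD6 (-0.18). A p that misses the threshold does not show that these genes were equal.

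In the lists that follow, between 0 and 2 genes passed. Of 40 cell cycle genes 0 passed, with a median of 0.07 and the largest difference in TOP2A (0.88, arrays of 10.77 and 11.33 against 12.06 and 11.80). Of 50 measured ribosomal protein genes 0 passed, of 22 genes of cholesterol synthesis FDPS rose by 0.40, and of 32 hypoxia and glycolysis genes the peptide hormone ADM fell by 0.56. Of 33 splicing regulators SRSF6 (-0.55) and SRSF5 (-0.53) fell, and for SRSF6 the mean of its 2 probe sets was 0.15.

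All 6 markers of PC3 as an epithelial line passed the filter on low values and 0 passed the test. EPCAM read 13.18 and 13.23 untreated and 13.29 and 13.23 with rhDKK1, and the keratins KRT8, KRT18 and KRT19, CD44 and the mesenchymal filament VIM, which PC3 also makes, differed by -0.04 to 0.22, with KRT18 and VIM higher on both rhDKK1 arrays. Of 10 osteoblast markers 5 passed the filter and 0 the test, with differences from -0.10 to 0.09, and COL1A2, SP7, DMP1, OMD and BGLAP did not. Of 7 fibroblast markers 5 passed the filter and 0 the test: PDGFRA read 6.18 and 5.63 untreated and 6.84 and 6.55 with rhDKK1 (0.79, limma adjusted p = 0.0725), COL3A1 was also higher on both rhDKK1 arrays, and DCN and PDGFRB were lower. Of 8 blood and endothelial markers 4 passed the filter and 0 the test, with differences from -0.30 to -0.09. The arrays also differed in their controls. The spiked poly-A control RNAs averaged 10.99 and 11.66 on the untreated arrays and 6.64 and 6.38 on the rhDKK1 arrays. On the other co-culture arrays they averaged 6.41 to 7.22, with 6.68 on the third rhSOST array. The 3′ minus 5′ difference of the ACTB controls was 0.50 and 0.88 untreated, 1.19 and 0.99 with rhDKK1, and 1.32 to 2.06 on the others. For GAPDH it was 0.15 and 0.24 untreated and 0.12 on both rhDKK1 arrays. The control probe sets for 18S ribosomal RNA averaged 11.68 and 9.64 on the untreated arrays and 13.15 and 12.96 on the rhDKK1 arrays, between 12.94 and 13.19 on the other co-culture arrays except the third rhSOST array, and 8.71 on that one. How the RNA was prepared and the culture condition cannot be told apart in these 4 arrays.

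On the third rhSOST array, which stood apart in those ribosomal controls, many rises at dimmer probe sets were also absent, while the falls were present. Of 33970 probe sets past the filter, 211 (0.621%) had a mean rise of at least 2-fold with rhDKK1 and 56 (0.165%) a mean fall of at least 2-fold, and by this choice the untreated and rhDKK1 values differ. The rises numbered 451 without the second untreated array and 404 without the second rhDKK1 array, and the falls 92 without the first rhDKK1 array. The third rhSOST array entered this choice only through the filter on low values, which used all 9 arrays. On it, 127 of the 211 were at or below the higher untreated array, against 0 and 3 on the first and second rhSOST arrays and 0 on the OB SostKO arrays. Of the 56 falls, 0 returned to the untreated level on the third rhSOST array, whose poly-A controls (6.68) were also at the level of the other co-cultures. The median of the 211 was 6.04 and 6.09 on the untreated arrays, 7.42 and 7.27 on the rhDKK1 arrays and 6.16 on the third rhSOST array. The untreated arrays had nearly the same median, while their ribosomal controls read 11.68 and 9.64. Their values were part of the choice of the 211, so nothing is concluded from that likeness. Of the 211, 27 (12.8%) were the brightest probe set of their gene, against 22 of the 56 (39.3%) and 14863 of all 33970. Probe sets with no gene symbol or with several are in these totals but cannot be the brightest. Of those 27 the third rhSOST array was at the untreated level on 5. The part of RNA preparation in these rises was not tested.

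**Figure D4:**
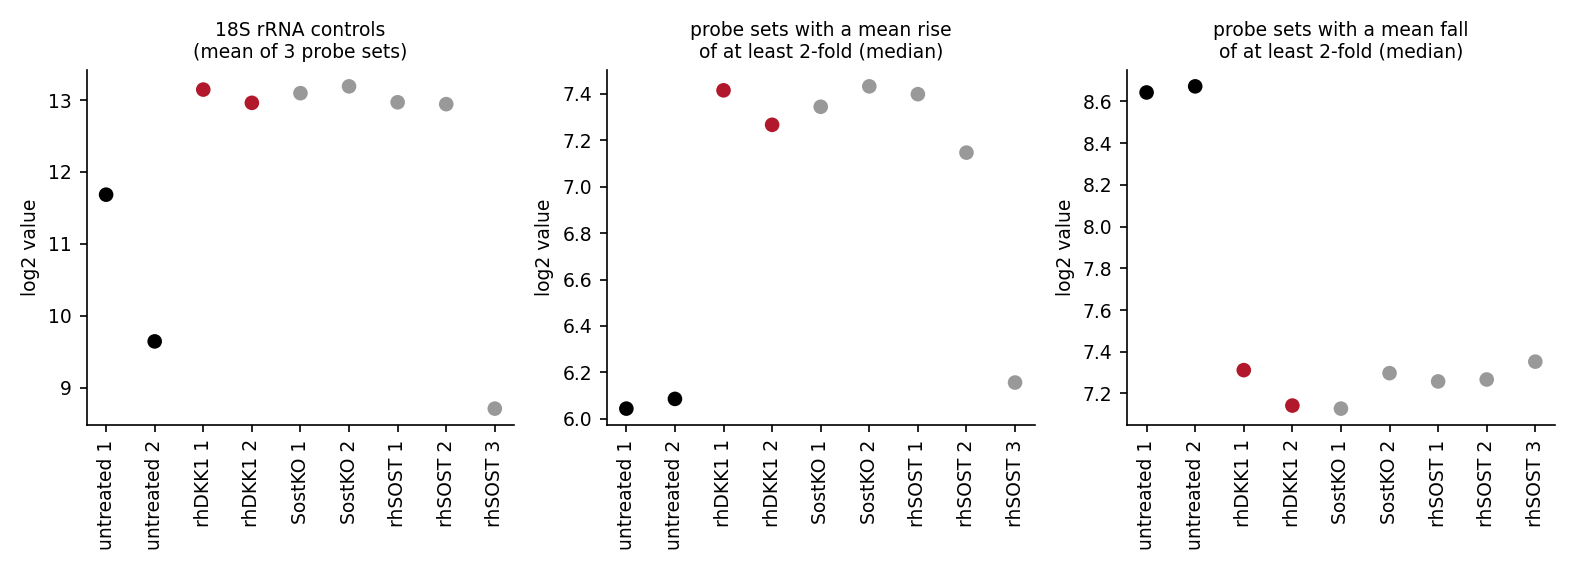
Mean log2 value of the 3 control probe sets for 18S ribosomal RNA (left), and medians of the 211 probe sets with a mean rise (middle) and of the 56 with a mean fall (right) of at least 2-fold, on each of the 9 arrays (x axis; black untreated PC3, red OB WT + rhDKK1, gray the others). In the ribosomal controls the third rhSOST array, at 8.71, lies below both untreated arrays (11.68 and 9.64). Its median over the rises, 6.16, is near those of the untreated arrays (6.04 and 6.09). Its median over the falls, 7.35, is near those of the other co-cultures.

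These rises often went without a rise at the gene's brightest probe set. Those at a probe set with a single gene symbol, other than the brightest, belonged to 129 genes, whose median difference at the brightest was 0.05. SEPTIN7, which assembles into filaments, had 1.90 at one probe set and -0.23 at its brightest, MYO10, a filopodial myosin, 1.53 and -0.14, the actin-binding calponin CNN3 1.37 and -0.27, the receptor FGFR2 1.18 and 0.21, the junction protein PKP4 1.04 and 0.17, and CRIM1, a membrane protein that binds BMPs, 1.02 and 0.27. None of these passed an adjusted p of 0.05 in limma at either probe set. That fit takes its spread from all 9 arrays, and at the probe sets that rose the third rhSOST array lay below the other 2 rhSOST arrays. The one of CRIM1 read 9.07 and 9.11 untreated and 10.16 and 10.06 with rhDKK1, but 10.17, 9.85 and 8.67 with rhSOST (standard error 0.39). A missed threshold there does not show that the rhDKK1 and untreated arrays were equal. The cyclin gene CCNI read 4.80 and 4.86 untreated and 6.97 and 6.93 with rhDKK1 at a dim probe set (2.13, limma adjusted p = 0.0291 over 54613 probe sets) and differed by 0.30 and -0.01 at its 2 brighter ones. Among the 19 genes called at their brightest probe set that had over 1, all probe sets had the same sign in 15. The exceptions were ADARB1, LRATD1 and TMT1A, each with a probe set of the opposite sign, and ZSCAN2, whose second probe set had one value on all 4 arrays.

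**Figure D5:**
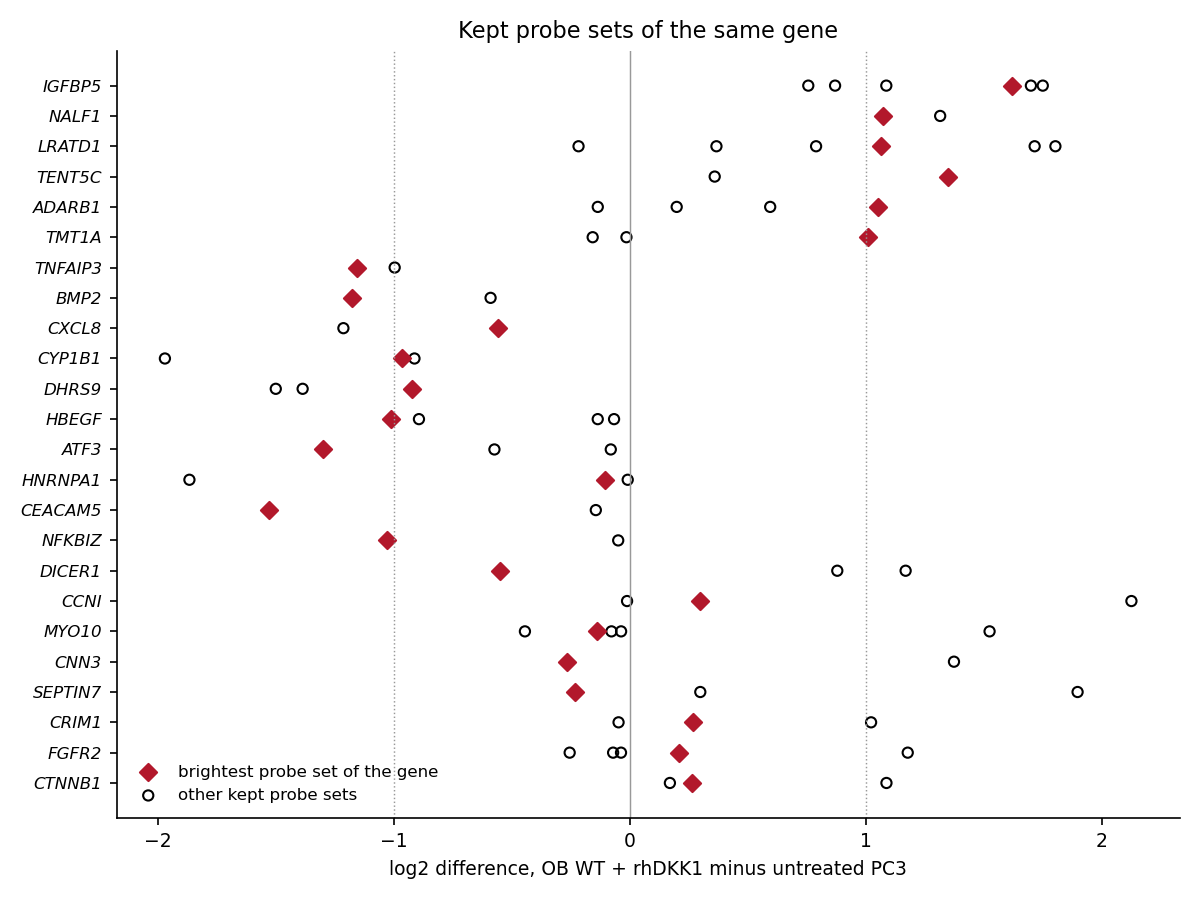
Log2 difference of OB WT + rhDKK1 against untreated PC3 (x axis) for all kept probe sets of 24 genes (rows); red diamonds are the brightest probe set of a gene and open circles the others, and dotted lines mark 2-fold. The 6 probe sets of IGFBP5 lie between 0.76 and 1.75, while SEPTIN7 has 1 at 1.90 beside its brightest at -0.23.

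Over all 54613 probe sets, with no filter and no gene names needed, 42 (0.0769%) were higher and 48 (0.0879%) were lower at an adjusted p under 0.05 and 2-fold in limma. With only the 4 arrays compared in the fit, 0 were higher and 0 lower, and with a replicate block 146 were higher. The number of higher probe sets was 160 without the third rhSOST array, 24 without the second, 7 without either rhDKK1 array and 16 without the first untreated array, and that of lower ones was 18, 20 and 30 without the first or second rhDKK1 array or the first untreated array. Beyond ND6, CCNI, IGFBP5, LRATD1 and LINC00261, the largest rises were at probe sets of TNFSF15 (1.54), a cytokine of the TNF family whose brightest probe set also rose, by 0.79, SAMD12 (1.51), AFG2B (1.43), HINT3 (1.43) and the chemokine receptor CXCR4 (1.43), whose 2 brighter probe sets overlapped between the groups. The lowest value was that of a probe set with no gene symbol in the annotation used here, which read 8.67 and 8.96 untreated and 3.61 and 3.04 with rhDKK1 (-5.49). The retinol dehydrogenase DHRS9 was lower on both rhDKK1 arrays at all 3 of its probe sets, with -0.92 at the brightest and -1.39 at another. HNRNPA1, an RNA-binding protein, fell by 1.87 at one probe set and had -0.11 and -0.01 at its 2 others.

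Set directly against the other co-cultures, the rhDKK1 arrays gave no gene past an adjusted p of 0.05 in limma. Of 14863 genes, 0 (0%) differed from rhSOST, with 382 at an unadjusted p under 0.05, and 0 (0%) differed from OB SostKO, with 123. Each of the latter counts is a smaller share of the genes than the 0.05 that such a threshold would pass if no gene differed. The smallest p against rhSOST were those of OSBPL7 (-0.48), HERC2P7 (-0.39), MGP (-0.30), ITGA2B (-0.34) and DIRAS1 (-0.40), each with a limma adjusted p that rounds to 1. Against OB SostKO they were those of LINC00937 (-0.38), CIMIP2A (-0.45), RNF183 (-0.28), MIA2 (-0.45) and DERL3 (-0.40). The comparisons with untreated PC3 share the 2 untreated arrays, so their values are only set side by side: IL6 had -1.90 with rhDKK1, -1.84 with OB SostKO and -1.92 with rhSOST, IGFBP5 had 1.62, 1.49 and 1.71, and ND6 had 2.63, 2.34 and 2.47. The direct difference from rhSOST was 0.02 for IL6 (95% interval -0.23 to 0.26), -0.09 for IGFBP5 (-0.33 to 0.15) and 0.16 for ND6 (-0.51 to 0.83). That from OB SostKO was -0.06 for IL6 (-0.33 to 0.21), 0.13 for IGFBP5 (-0.13 to 0.40) and 0.29 for ND6 (-0.44 to 1.02). Over the 41 called genes it ran from -0.32 to 0.40, and from OB SostKO it ran from -0.24 to 0.29. The intervals leave room for differences of a size that 2 arrays a group could not show.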

How the data were processed

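The authors deposited 9 arrays as log2 expression values made with RMA, named in the submitters' processing notes; RMA corrects background, equalizes array distributions and summarizes probe sets, so absolute shifts common to all genes are removed. The software version is not given in the sources used here. Arrays were grouped by their titles. In R 4.3.3 with limma 3.58.1, the tests left out 62 control probe sets, and a low-value filter (40th percentile of an array, met on 2 or more arrays) left 33970 for the gene fit. Of 54613 probe sets, 41091 carry 1 gene symbol in the platform's annotation, 1801 carry several and 11721 none; 41037 symbols matched RefSeq. Each gene was represented by its brightest kept probe set (highest mean over the 9 arrays). The fit (lmFit, eBayes) gave each of the 4 groups its mean (8.66 degrees of freedom for a gene), without a replicate block, and p-values were adjusted by Benjamini-Hochberg over all genes or probe sets. Called genes pass an adjusted p under 0.05 and 2-fold, and list members an adjusted p under 0.05. Genes were named by a rule: the 15 called genes that rose most and the 15 that fell most, from each list described the 4 of smallest p, the 5 of smallest p in each direct comparison, the 10 largest rises among called probe sets, DKK1, SOST, CTNNB1, AXIN2 and 6 genes the study names; others complete a count or were chosen after their values were seen. The members and lists were chosen with earlier results of these data known. The procedure was tested on simulated data. Python 3.11.15 and pandas 2.3.3 made the tables. The number of arrays limits the precision, with a median standard error of 0.10.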

Additional observations from a re-analysis of the deposited data

Results flagged for a closer look

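A signal outside the comparisons of genes differed between the groups: the 3 control probe sets for 18S ribosomal RNA, which were left out of every test, averaged 10.66 on the untreated arrays and 13.05 on the rhDKK1 arrays, a difference of 2.39 on the log2 scale, and both rhDKK1 arrays lay above both untreated arrays. The part of RNA preparation in this difference was not tested.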

How the results depend on the processing

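Counts of called genes that were lower varied less than those that were higher, and 2 arrays a group limit the precision. Under the other probe set rules, the mean of the kept probe sets gave 12 higher genes, and the probe set with the largest SD gave 32 lower genes. Without the fold 372 genes were higher and 261 lower. The study's general tests, which its methods do not tie to the arrays, were an ANOVA followed by Tukey's and a paired t-test, here paired by replicate number, and each gave 0 higher and 0 lower genes after adjustment, and 0 of the NF-kB list and of the immediate early genes; unadjusted and at 2-fold, the ANOVA gave 20 and 19, and the paired t-test 12 and 14. With only the groups compared in the fit, 7 of the NF-kB list and 2 immediate early genes fell, and 0 probe sets were called in either direction. Leaving out 1 array at a time gave 11 to 26 higher genes, 17 to 21 lower genes, 8 to 13 of the NF-kB list, 3 to 10 immediate early genes, 7 to 160 higher and 18 to 51 lower probe sets, and 0 to 0 genes in both direct comparisons. Replicate numbers were not taken as pairs: the deviations of rhDKK1 arrays and same-numbered arrays correlated at -0.32 with untreated PC3, at -0.57 with OB SostKO and at 0.27 and 0.31 with rhSOST. With a replicate block, which gives the third rhSOST array a level of its own, 25 genes were higher, 19 were lower, 5 immediate early genes fell and 146 probe sets were higher. With the rhDKK1 numbers crossed, which was chosen after seeing the data, 27 genes were higher and 20 lower. The mean of the probe sets turned DICER1 to 0.50 and SRSF6 to 0.15, and the probe set with the largest SD turned DICER1 to 1.17, SRSF6 to 0.86 and SKIL to 0.96; the cause was not tested. No filter, the 60th percentile, cyclic loess and eBayes with trend changed no count of called genes by over 1.5 times.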
